A study of Homo sapiens with 12 samples.

Results

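SR protein, splicing kinase and nuclear speckle genes were described in HEL cells, a human erythroleukaemia line that the labels call an acute myeloid leukaemia line with the JAK2V617F mutation. The list held 44 genes, chosen by name and on the measured values of these same arrays, since several of its members were already seen to be lower with JAK2 hairpins. Of the 44 genes, 42 had a probe set of their own in the platform annotation, with 100 probe sets in all, out of 11940 such genes and 22406 probe sets that were no array control. Expression of CLK4 and PRPF4B was not analysed here. Affymetrix arrays of 1 colour, 12 in all, measured gene expression in 4 groups of 3. Cells of the Jak2-10 and Jak2-9 groups received a lentiviral short hairpin RNA against JAK2, each with a sequence of its own. Cells of the Luc group received a luciferase hairpin, and the GFP group is named both a hairpin control and a vector control in the labels. All 4 groups carried the same JAK2 mutation and a lentivirus, the hairpins came in a pLKO vector with puromycin resistance, and the single cell line limits the model to its own genome. Time after infection was not given in the sources used here. Total RNA was taken with Trizol, and 20 ng of it was amplified linearly before labelling.

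SR proteins bind RNA and carry a tail of repeated arginine and serine residues, through which they recruit the splicing machinery to exons. Kinases of the CLK and SRPK families phosphorylate that tail, and nuclear speckles, bodies built on the large proteins SON and SRRM2, store the phosphorylated factors near active genes. Many SR protein genes and their relatives also make alternative transcripts with retained introns or extra exons that stop translation early, so different probe sets of such a gene can read different transcripts. JAK2 is a cytoplasmic tyrosine kinase that signals to STAT transcription factors, and the activating mutation drives growth of HEL cells.

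Promoter sequence was examined because many members shared a direction. Each of the 3 windows printed here is the 250 bases before the start of transcription, credited to RefSeq with the build GRCh38.p14 and read 5′ to 3′ on the minus strand. RSRP1 and CCNL1 are shown as examples of members whose every probe set stood below all control arrays on all hairpin arrays. SRSF10, SRSF11, CCNL2, ARGLU1, PNISR, LUC7L3, RBM26 and RBM39 shared that trait. DDX17 is shown as 1 of 3 members that carried the letters of a STAT site. RSRP1 lies at chr1:25338255-25338504, CCNL1 at chr3:157160148-157160397 and DDX17 at chr22:38506312-38506561. Capitals mark matches to the motifs searched, the GC box GGGCGG (or its reverse complement) and the STAT site TTCNNNGAA.
RSRP1: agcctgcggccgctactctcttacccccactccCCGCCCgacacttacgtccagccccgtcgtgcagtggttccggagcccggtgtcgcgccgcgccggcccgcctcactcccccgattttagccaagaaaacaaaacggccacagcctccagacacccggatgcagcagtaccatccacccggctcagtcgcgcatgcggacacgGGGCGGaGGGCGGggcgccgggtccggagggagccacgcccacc
CCNL1: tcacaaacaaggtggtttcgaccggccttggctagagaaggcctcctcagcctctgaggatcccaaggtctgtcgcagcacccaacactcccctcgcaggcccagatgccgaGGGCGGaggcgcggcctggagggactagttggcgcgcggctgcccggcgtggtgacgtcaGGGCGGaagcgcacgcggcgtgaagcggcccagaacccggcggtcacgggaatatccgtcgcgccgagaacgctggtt
DDX17: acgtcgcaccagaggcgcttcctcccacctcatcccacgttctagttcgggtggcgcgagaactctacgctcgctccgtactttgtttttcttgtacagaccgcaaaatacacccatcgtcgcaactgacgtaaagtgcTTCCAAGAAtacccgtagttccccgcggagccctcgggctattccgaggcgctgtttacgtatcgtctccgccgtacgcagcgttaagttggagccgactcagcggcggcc
Matches were sought on both strands of 300 bases around each of 35116 RefSeq promoters, 250 before and 50 after the start, and 39 of the 44 members matched with 55 promoters. The RSRP1 window held 3 GC boxes, beginning 217, 44 and 37 bases before the start, and the CCNL1 window held 2, at 138 and 78 bases before it. The DDX17 window held 1 STAT site at 111 bases before the start. STAT sites were found in 3 of 55 member promoters (5.45%; BCLAF1, DDX17 and HNRNPH1) and in 7.66% of all promoters. The GC box was found in 29 of 55 (52.7%) and in 45.0% of all, the CCAAT box (CCAAT) in 18 (32.7%) and in 34.6% of all, and the TATA box (TATAAA) in 7 (12.7%) and in 11.5% of all. Among the 17 matched members that passed the threshold with JAK2 hairpins, 1 had a STAT site, 10 a GC box, 6 a CCAAT box and 5 a TATA box. Among the 22 other matched members, 2 had a STAT site, 13 a GC box, 10 a CCAAT box and 2 a TATA box. These others include CLK4, which had a GC box and whose expression was not analysed. A match describes letters in this window only, and none of the 4 motifs contains another.

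Intensity of the targeted gene was read first. JAK2 had probe sets 205841_at and 205842_s_at, and only the latter is described here. JAK2 at probe set 205842_s_at had log2 intensities of 10.06, 10.04 and 9.78 in Jak2-10, 9.37, 9.89 and 10.09 in Jak2-9, against 10.47, 10.63 and 10.56 in Luc and 10.47, 10.40 and 10.68 in GFP. All hairpin arrays lay below all control arrays, and the difference was -0.67 ± 0.11 on the log2 scale (SE; limma over all 12 arrays). Of the markers of HEL cells, the fetal globins HBG1 and HBG2 were at 14.70 and 14.78, the transcription factors GATA1 and KLF1 at 9.96 and 10.44, and ITGA2B, the platelet integrin, at up to 10.46. Markers of lymphoid cells, monocytes and fibroblasts were at or below 5.77 (CD79A), and the epithelial keratin KRT18 was at 7.34 (means over 12 arrays). None of these markers had an adjusted p below 0.05 with both hairpins together, while HBZ, an embryonic globin, and KRT18 were higher with Jak2-9 than in the controls, by 0.62 and 0.70 on the log2 scale; their part in the results was not tested. Array 1 of Jak2-9 stood apart, with Pearson correlations across probe sets of 0.985 with its group against at least 0.995 within each other group. It had 592 probe sets over 2-fold from the mean of its group's other arrays, where the remaining arrays had 0 to 36. Without it, the difference of both hairpins from the controls moved by over 1.5 times or changed sign in 36 of 100 member probe sets, 6 of which changed sign and 0 of which were called on all arrays. In bulk samples fewer cells of a type and less RNA per cell cannot be told apart.

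With JAK2 hairpins, the largest differences were those of RSRP1, SRSF7, TRA2A, CCNL1, PPIG and PNISR, and none of the speckle scaffolds passed the threshold used here. Of 100 member probe sets, 37, from 20 genes, were lower in the mean of both hairpin groups than in the mean of both controls at an adjusted p below 0.05 (limma with Benjamini-Hochberg adjustment over all 22406 probe sets; the threshold used throughout), and 0 were higher. Over all probe sets 2.51% were lower and 0.629% higher by the same rule. The members were chosen with falls in this comparison known, so nothing is read from that difference in share, and no p is given for a member in a comparison of hairpins with controls. The log2 difference had a median of -0.25 over the member probe sets, with 90 below 0 (88 without array 1 of Jak2-9) and a range of -2.59 to 0.19, and a median of 0.03 over all probe sets. In 32 member probe sets, of 17 genes, all 6 hairpin arrays lay below all 6 control arrays, against 2.13% of all probe sets, and in 0 they lay above, against 1.03%.

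**Figure D1:**
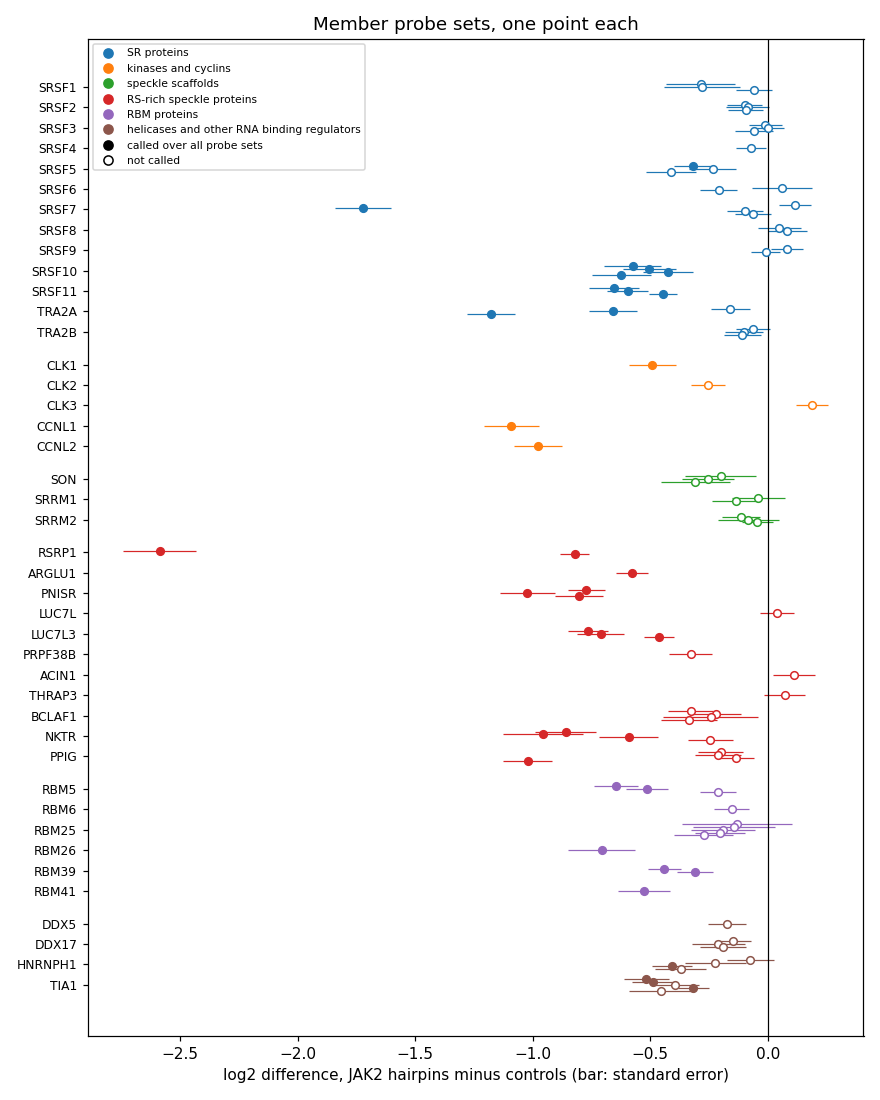
Log2 difference of each member probe set, JAK2 hairpins minus controls (x axis, bar: standard error), by gene (y axis) and role (colour); filled points passed an adjusted p of 0.05 over all probe sets. Filled points lie at 37 probe sets, all left of 0, and RSRP1 reaches -2.59.

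By role, the share of probe sets past the threshold was 11 of 36 for SR proteins (5 of 13 genes; median difference -0.10), 3 of 5 for kinases and cyclins (3 genes; -0.49), 0 of 8 for speckle scaffolds (-0.12), 13 of 25 for proteins rich in arginine and serine (6 of 11 genes; -0.46), 6 of 13 for RBM proteins (4 of 6 genes; -0.27) and 4 of 13 for helicases and other RNA-binding regulators (2 of 4 genes; -0.32). Jak2-9 on its own had 39 member probe sets of 23 genes below the controls and 0 above, against 2.62% and 1.64% of all probe sets. Jak2-10 on its own had 18 of 12 genes below and 0 above, against 1.29% and 0.0848% of all probe sets. The medians were -0.38 for Jak2-9 and -0.19 for Jak2-10, both taken against the same control arrays, and the Jak2-9 median was -0.24 without its array 1. Without array 1 of Jak2-9, 38 probe sets of 20 genes were called with both hairpins (2.77% of all probe sets were lower), 36 of them shared, which is 97.3% of the calls on all arrays and 94.7% of the calls without it. Without it Jak2-9 had 29 calls of 18 genes (1.79% of all) and Jak2-10, whose own arrays were all kept, had 28 of 17 genes (1.9% of all).

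Among the SR proteins, SRSF7, SRSF10, SRSF11, TRA2A and SRSF5 had probe sets past the threshold. SRSF7, an SR protein that shuttles between nucleus and cytoplasm and carries a zinc knuckle, was read by 4 probe sets. At 213649_at its log2 intensities were 8.13, 8.39 and 7.88 in Jak2-10, 7.27, 7.62 and 7.99 in Jak2-9, against 9.73, 9.79 and 9.73 in Luc and 9.51, 9.58 and 9.28 in GFP. Every hairpin array was below every control array, by a gap of 0.88 at the closest. The log2 difference was -1.72 ± 0.12 (SE), so the hairpin intensity was 30.3% of the control intensity. At 211439_at they were 4.93, 4.66 and 4.91 in Jak2-10, 4.99, 4.96 and 4.86 in Jak2-9, against 4.80, 4.76 and 4.70 in Luc and 4.80, 4.77 and 4.80 in GFP. These values overlap between hairpins and controls, and the difference there was 0.12 ± 0.07. The other SRSF7 probe sets differed by -0.10 ± 0.08 and -0.06 ± 0.08, and these 3 of the 4 probe sets did not pass.

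SRSF10, which can act as a splicing repressor when its tail loses phosphate, had 4 probe sets and all of them passed. At 213594_x_at its log2 intensities were 11.49, 11.51 and 11.32 in Jak2-10, 10.48, 11.35 and 11.33 in Jak2-9, against 11.93, 11.98 and 12.02 in Luc and 11.84, 11.75 and 11.71 in GFP. All hairpin arrays were below all controls, and array 1 of Jak2-9 lay lowest by a wide gap. The difference was -0.62 ± 0.13 with all arrays and -0.48 without that array, and the other SRSF10 probe sets ranged from -0.58 to -0.42. With 1 array left out in turn, 213594_x_at kept its call in all 12 fits and 204299_at in 11 (lost without array 2 of Luc). The call at 206095_s_at was kept in 7 (lost without array 3 of Jak2-10, 2 or 3 of Luc, or 1 or 3 of GFP; values of -0.57 to -0.40). At 210178_x_at it was kept in 3, those that left out a Jak2-9 array, with values of -0.48 to -0.31. SRSF11, a splicing factor with an arginine and serine rich domain, passed at all 3 of its probe sets. At 200686_s_at it had 10.69, 10.63 and 10.30 in Jak2-10, 10.36, 10.41 and 10.69 in Jak2-9, against 11.06, 11.19 and 11.29 in Luc and 11.10, 11.01 and 10.996 in GFP. The groups of hairpins and controls did not overlap, the difference was -0.60 ± 0.09, and the other probe sets stood at -0.65 and -0.45.

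TRA2A, a human relative of the fly splicing regulator transformer-2, had 4.90, 4.79 and 4.56 in Jak2-10, 4.71, 4.62 and 4.62 in Jak2-9, against 6.49, 6.48 and 6.05 in Luc and 5.59, 5.49 and 5.16 in GFP at 213593_s_at. Hairpin arrays lay within 0.34 of each other at that probe set and below every control, while Luc stood above GFP. The difference from both controls was -1.18 ± 0.10, and signal this close to the low end of the table may hold background. At 204658_at TRA2A had 9.39, 9.32 and 9.14 in Jak2-10, 8.94, 9.42 and 9.26 in Jak2-9, against 9.41, 9.40 and 9.33 in Luc and 9.50, 9.44 and 9.33 in GFP. There hairpins and controls overlapped, with a difference of -0.16 ± 0.08 (-0.09 without array 1 of Jak2-9); the remaining TRA2A probe set, 213575_at, stood at -0.66 ± 0.10 and passed. SRSF5 had 9.94, 9.86 and 9.77 in Jak2-10, 9.53, 9.71 and 9.84 in Jak2-9, against 10.25, 10.04 and 10.18 in Luc and 10.12, 10.10 and 9.87 in GFP at 203380_x_at. Array 1 of Jak2-10 lay above array 3 of GFP, so the groups overlap, and the difference of -0.32 ± 0.08 kept its call in 4 of 12 fits that left out 1 array each (array 1 or 3 of Jak2-9, 2 of Luc or 3 of GFP), with values of -0.36 to -0.28 over the 12. The other SRSF5 probe sets stood at -0.41 (212266_s_at) and -0.23 and did not pass. At 212266_s_at all hairpin arrays lay below all controls, and without array 1 of Jak2-9 it stood at -0.30 and was called.

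The remaining SR proteins had no probe set past the threshold with hairpins. SRSF3, SRSF4, SRSF8, SRSF9, SRSF2 and TRA2B, 14 probe sets in all, lay between -0.11 and 0.08, and between -0.08 and 0.13 without array 1 of Jak2-9. SRSF1, the founding member of the family, lay between -0.28 and -0.06, and between -0.14 and -0.01 without that array. SRSF6 had -0.21 and 0.06 at its probe sets, and -0.19 and -0.02 without it.

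The kinases and their cyclin relatives each had 1 probe set. CLK1, which phosphorylates SR proteins in the nucleus, had log2 intensities of 6.74, 6.74 and 6.40 in Jak2-10, 6.65, 6.65 and 6.22 in Jak2-9, against 7.10, 7.35 and 7.19 in Luc and 6.97, 7.04 and 6.69 in GFP. The hairpin arrays reached 6.74 and array 3 of GFP was at 6.69, so the groups overlap there, and the difference was -0.49 ± 0.10. CLK2 and CLK3, close relatives of CLK1, differed by -0.25 ± 0.07 and 0.19 ± 0.07 and did not pass. CCNL1, a cyclin of nuclear speckles that partners CDK11 kinases, had 8.46, 8.52 and 8.20 in Jak2-10, 7.46, 8.02 and 8.22 in Jak2-9, against 9.23, 9.34 and 9.52 in Luc and 9.23, 9.08 and 9.01 in GFP. All hairpin arrays were at least 0.50 below all controls, with array 1 of Jak2-9 lowest, and the difference was -1.09 ± 0.12 with that array and -0.98 without it. Its paralogue CCNL2 had 7.42, 7.34 and 7.18 in Jak2-10, 6.90, 7.29 and 7.56 in Jak2-9, against 8.33, 8.56 and 8.57 in Luc and 8.14, 7.98 and 7.96 in GFP. Hairpins and controls did not overlap, the difference was -0.98 ± 0.10 (a hairpin intensity of 50.8% of the controls), and Luc again stood above GFP.

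**Figure D2:**
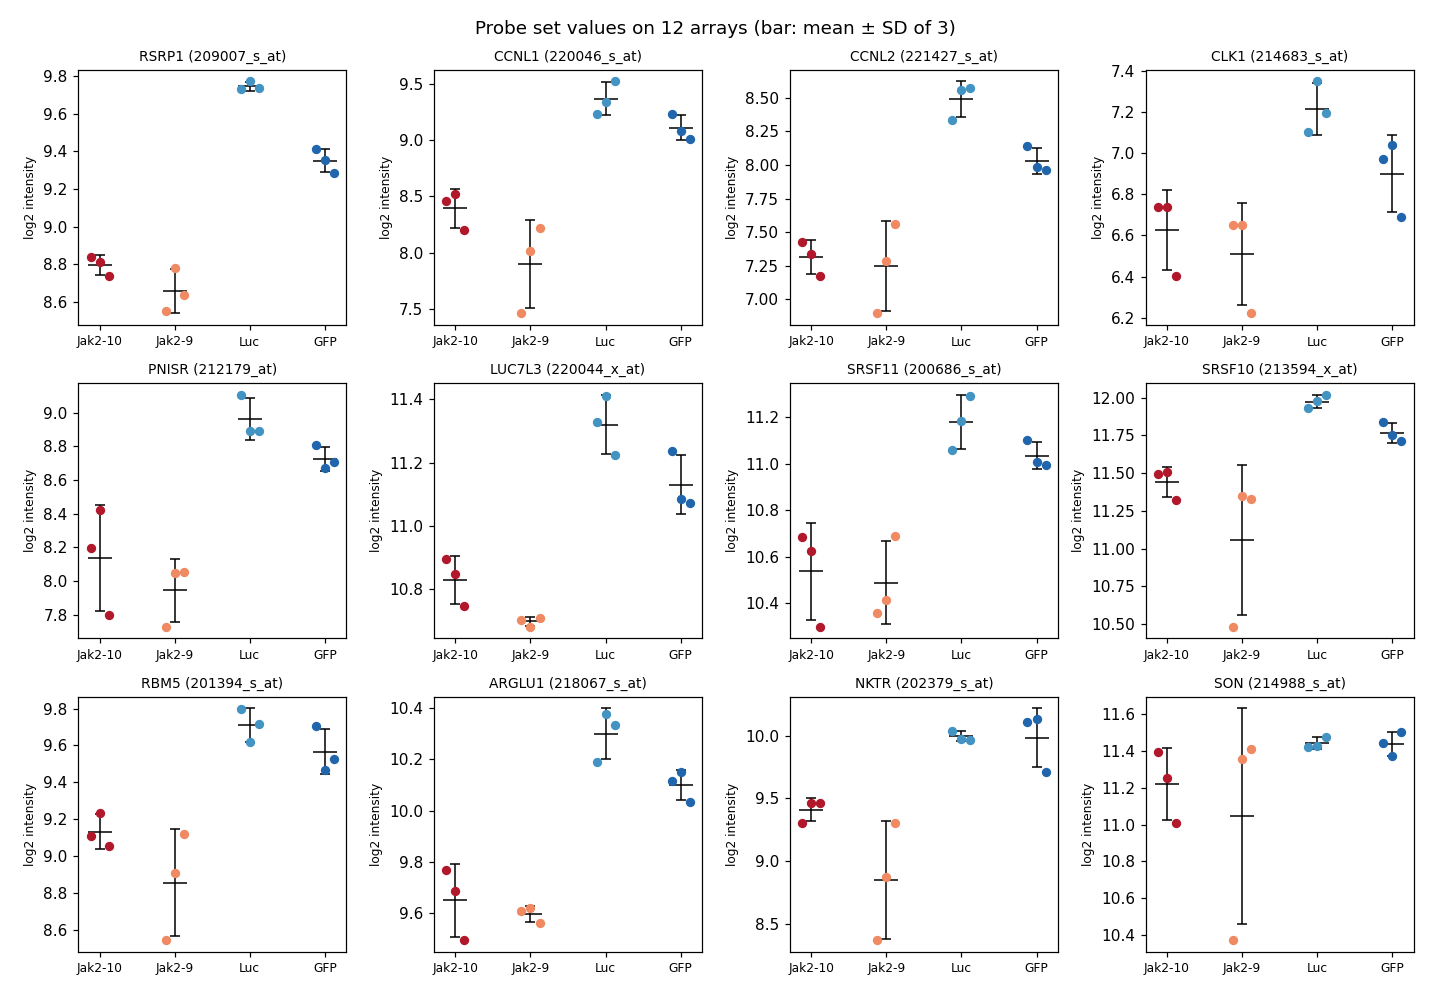
Log2 intensity (y axis) on each of the 12 arrays, in points, for 12 member probe sets by group (x axis), with the mean and SD of 3 arrays as bars. Hairpin points lie below all control points in 10 of the panels, and they overlap the controls for CLK1 and SON. The panels are a selection, and over all members 32 of 100 probe sets lay apart in this way.

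The scaffolds of nuclear speckles had no call. SON, a large protein on which speckles are built, had 11.40, 11.26 and 11.01 in Jak2-10, 10.37, 11.36 and 11.41 in Jak2-9, against 11.42, 11.43 and 11.48 in Luc and 11.44, 11.37 and 11.50 in GFP at 214988_s_at. Hairpins and controls overlapped, and array 1 of Jak2-9 lay lowest, at 10.37. The difference was -0.31 ± 0.15, and -0.14 without that array, and the other SON probe sets stood at -0.25 and -0.20 with it and at -0.13 and -0.02 without it. SRRM1 and SRRM2, both large arginine and serine rich matrix proteins, lay between -0.13 and -0.04 over 5 probe sets, and between -0.18 and 0.05 without that array. All 8 scaffold probe sets had negative differences on all arrays; without array 1 of Jak2-9, 7 of 8 did, and SRRM1 at 201224_s_at stood at 0.05.

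The proteins rich in arginine and serine held the largest difference of the list. RSRP1, an arginine and serine rich protein whose function is little described, had 5.44, 5.51 and 5.59 in Jak2-10, 4.88, 5.21 and 5.60 in Jak2-9, against 7.73, 8.48 and 8.45 in Luc and 7.88, 7.92 and 7.30 in GFP at 209006_s_at. Hairpin arrays reached 5.60 and control arrays began at 7.30, a gap of 1.70 where the hairpin arrays span 0.72 and the control arrays 1.19. The difference was -2.59 ± 0.16, with hairpin signal so low that it may hold background. At 209007_s_at RSRP1 had 8.84, 8.81 and 8.74 in Jak2-10, 8.55, 8.78 and 8.64 in Jak2-9, against 9.73, 9.77 and 9.74 in Luc and 9.41, 9.35 and 9.29 in GFP. The same arrays were low with no overlap, but the difference was -0.82 ± 0.06, and Luc lay above GFP on every array at that probe set.

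PNISR, which binds the speckle protein pinin, had 8.19, 8.42 and 7.80 in Jak2-10, 7.73, 8.05 and 8.06 in Jak2-9, against 9.11, 8.89 and 8.89 in Luc and 8.81, 8.67 and 8.71 in GFP at 212179_at. No hairpin array reached a control array, and its 3 probe sets gave -0.80 ± 0.10, -1.02 ± 0.12 and -0.77 ± 0.08. LUC7L3, a human relative of the yeast U1 snRNP protein Luc7, had 10.90, 10.85 and 10.75 in Jak2-10, 10.70, 10.68 and 10.71 in Jak2-9, against 11.33, 11.41 and 11.22 in Luc and 11.24, 11.09 and 11.07 in GFP at 220044_x_at. Hairpins and controls did not overlap, and the Jak2-9 arrays lay within 0.03 of each other. Its difference was -0.46 ± 0.06 there and -0.76 and -0.71 at its other probe sets, while its relative LUC7L stood at 0.04 ± 0.07 (-0.01 without array 1 of Jak2-9). ARGLU1, an arginine and glutamate rich protein of transcription and splicing, had 9.77, 9.69 and 9.49 in Jak2-10, 9.61, 9.62 and 9.56 in Jak2-9, against 10.19, 10.38 and 10.34 in Luc and 10.11, 10.15 and 10.03 in GFP. Hairpins reached 9.77 and controls began at 10.03, with no overlap and a difference of -0.58 ± 0.07.

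NKTR and PPIG are cyclophilins, enzymes that isomerise proline bonds, with arginine and serine rich tails. NKTR at 202379_s_at had 9.30, 9.46 and 9.46 in Jak2-10, 8.37, 8.87 and 9.30 in Jak2-9, against 10.04, 9.97 and 9.97 in Luc and 10.11, 10.13 and 9.71 in GFP. All hairpin arrays were below all controls and the Jak2-9 arrays spanned 0.94, with a difference of -0.86 ± 0.13, and -0.74 without array 1 of Jak2-9. At 202380_s_at NKTR had 7.78, 7.66 and 7.35 in Jak2-10, 6.47, 7.38 and 7.71 in Jak2-9, against 8.61, 8.31 and 8.56 in Luc and 8.45, 8.12 and 8.05 in GFP. The groups again did not overlap, and the difference was -0.96 ± 0.17; a further NKTR probe set, 215338_s_at, stood at -0.59 ± 0.12 and passed, a call lost without array 1 of Jak2-10 or array 1 or 2 of GFP (values of -0.67 to -0.47). At 215339_at NKTR had 4.05, 4.16 and 4.10 in Jak2-10, 4.39, 4.07 and 3.92 in Jak2-9, against 4.20, 4.66 and 4.37 in Luc and 4.35, 4.38 and 4.19 in GFP. Hairpin and control values overlapped close to the low end of the table, and the difference was -0.24 ± 0.10.

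PPIG was read by 4 probe sets, of which 222375_at passed and 3 did not. At 222375_at its log2 intensities were 4.73, 5.02 and 5.03 in Jak2-10, 4.62, 4.56 and 4.60 in Jak2-9, against 6.41, 5.90 and 6.37 in Luc and 5.50, 5.45 and 5.05 in GFP. Hairpins and controls almost met without overlap (5.03 in array 3 of Jak2-10 and 5.05 in array 3 of GFP), Luc was the highest group, and the difference was -1.02 ± 0.11. At 208995_s_at PPIG had 8.66, 8.75 and 8.43 in Jak2-10, 8.26, 8.59 and 8.45 in Jak2-9, against 8.64, 8.58 and 8.65 in Luc and 8.72, 8.70 and 8.65 in GFP. Those values overlapped, with a difference of -0.14 ± 0.08, and the remaining probe sets stood at -0.20 and -0.21. Without array 1 of Jak2-9, the 3 probe sets that did not pass stood between -0.14 and -0.09.

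PRPF38B and BCLAF1 passed with Jak2-9 and not in the mean of both hairpins. PRPF38B, named for a yeast splicing factor, had 7.39, 7.24 and 6.95 in Jak2-10, 6.77, 7.18 and 7.02 in Jak2-9, against 7.55, 7.38 and 7.51 in Luc and 7.36, 7.25 and 7.45 in GFP. Hairpin and control arrays overlapped, and the difference was -0.43 ± 0.11 for Jak2-9 and -0.23 ± 0.11 for Jak2-10. BCLAF1, a partner of THRAP3 in messenger RNA processing, had 8.42, 8.41 and 8.41 in Jak2-10, 7.44, 8.10 and 8.34 in Jak2-9, against 8.39, 8.65 and 8.49 in Luc and 8.55, 8.52 and 8.53 in GFP at 214499_s_at. Array 1 of Jak2-9 lay lowest and the hairpins overlapped the controls. The Jak2-9 difference of -0.56 ± 0.15 was -0.30 and not called without that array, and for PRPF38B it was -0.32 and not called. Over the 12 fits that left out 1 array each, the Jak2-9 call was kept in 3 for PRPF38B and in 2 for BCLAF1. The other BCLAF1 probe sets differed by -0.33 to -0.22 in the mean of both hairpins (-0.25 to -0.01 without array 1 of Jak2-9) and did not pass. ACIN1 and THRAP3 did not pass, at 0.11 ± 0.09 and 0.07 ± 0.09 (0.03 and 0.10 without that array).

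Among the RBM proteins, RBM5, RBM26, RBM39 and RBM41 had probe sets past the threshold. RBM5, a splicing regulator of apoptosis genes, had 9.11, 9.24 and 9.05 in Jak2-10, 8.54, 8.91 and 9.12 in Jak2-9, against 9.80, 9.62 and 9.72 in Luc and 9.70, 9.47 and 9.53 in GFP at 201394_s_at. Hairpins and controls did not overlap, and the difference was -0.64 ± 0.09, with -0.51 and -0.21 at the other RBM5 probe sets, of which the first passed. RBM26, a zinc-finger protein linked to nuclear RNA decay, had 8.64, 8.73 and 8.22 in Jak2-10, 7.51, 8.35 and 8.46 in Jak2-9, against 9.10, 9.01 and 9.03 in Luc and 9.09, 9.06 and 8.86 in GFP. The groups did not overlap, array 1 of Jak2-9 was lowest, and the difference was -0.71 ± 0.14 with it and -0.56 without it.

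RBM39, a relative of the splicing factor U2AF2 and the protein degraded under aryl sulfonamide drugs, had 11.75, 11.69 and 11.39 in Jak2-10, 11.48, 11.62 and 11.74 in Jak2-9, against 12.004, 11.93 and 11.96 in Luc and 11.93, 11.79 and 11.90 in GFP at 208720_s_at. The highest hairpin array was at 11.75 and the lowest control array at 11.79, the difference was -0.31 ± 0.08, and the call held in 2 of 12 fits that left out 1 array (array 1 of Jak2-10 or 3 of Jak2-9), with values of -0.34 to -0.26. Its probe set 207941_s_at gave -0.44 ± 0.07 and held in all 12. RBM41 had 5.34, 5.77 and 5.25 in Jak2-10, 4.70, 5.15 and 5.22 in Jak2-9, against 5.77, 5.94 and 5.84 in Luc and 5.79, 5.72 and 5.52 in GFP. Array 2 of Jak2-10 lay among the controls, and the difference was -0.53 ± 0.11. The call was lost without array 1 of Jak2-10, 2 of Luc or 1 of GFP, and the values with 1 array left out ran from -0.61 to -0.44. RBM6 and RBM25 did not pass, with -0.15 ± 0.07 at 1 probe set and -0.27 to -0.13 at 5 (-0.15 to 0.01 without array 1 of Jak2-9).

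Among the helicases and other RNA-binding regulators, TIA1 and HNRNPH1 passed with both hairpins together. TIA1, which binds U-rich sequence near 5′ splice sites and gathers in stress granules, had 7.95, 7.96 and 7.90 in Jak2-10, 7.23, 7.73 and 7.68 in Jak2-9, against 8.21, 8.50 and 8.13 in Luc and 8.18, 8.17 and 8.37 in GFP at 201446_s_at. All hairpin arrays were below all controls, the difference was -0.52 ± 0.10, and its 5 probe sets ranged from -0.52 to -0.32, of which 3 passed. The call at 201449_at was lost without array 1 of GFP, and the other TIA1 calls were kept in all 12 fits. HNRNPH1, a protein that binds runs of G, passed at 1 of 4 probe sets, 213472_at, with 4.78, 4.73 and 5.02 in Jak2-10, 4.61, 4.60 and 4.57 in Jak2-9, against 5.07, 5.45 and 5.16 in Luc and 5.18, 4.86 and 5.03 in GFP. Array 3 of Jak2-10 lay among the GFP arrays, and the difference was -0.41 ± 0.09, with the other probe sets at -0.37 to -0.07 (-0.26 to -0.09 without array 1 of Jak2-9). That call was lost without array 1 or 2 of Jak2-10 or array 1 of GFP, with values of -0.45 to -0.35 over the 12 fits.

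DDX17, a DEAD-box RNA helicase, passed with Jak2-9 and had 8.63, 8.93 and 8.78 in Jak2-10, 7.74, 8.27 and 8.39 in Jak2-9, against 8.65, 8.64 and 8.76 in Luc and 8.60, 8.91 and 8.44 in GFP at 208719_s_at. All Jak2-9 arrays were below all controls while the Jak2-10 arrays lay among or above them. The difference was -0.53 ± 0.14 for Jak2-9 and 0.11 ± 0.14 for Jak2-10, and without array 1 of Jak2-9 the Jak2-9 value became -0.34 and was not called; the call was kept in 3 of 12 fits with 1 array left out. The other DDX17 probe sets stood at -0.19 and -0.15 in the mean of both hairpins, and at -0.11 and -0.08 without that array. Its paralogue DDX5 stood at -0.17 ± 0.08 and did not pass.

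The size of the difference varied among probe sets of the same gene. Of 27 members with several probe sets, 6 had all of them past the threshold, 8 had some and 13 had none, and a further 15 members had 1 probe set each. The lowest and highest differences of a gene lay less than 0.2 apart in 14 members and more than 0.5 apart in 5, with a median of 0.20. The 5 were SRSF7 (1.84 apart), RSRP1 (1.77), TRA2A (1.02), PPIG (0.89) and NKTR (0.71). The same counts were not made over all genes with several probe sets. Whether such spread within a gene is particular to the members is therefore not known. The annotation used here does not place a probe set within its gene, and probe sets whose names end in s_at or x_at may read several transcripts or related genes. By name ending, 14 of 35 plain probe sets passed, 19 of 54 ending in s_at and 4 of 11 ending in x_at, against 2.73%, 1.64% and 4.45% of all probe sets with these endings.

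**Figure D3:**
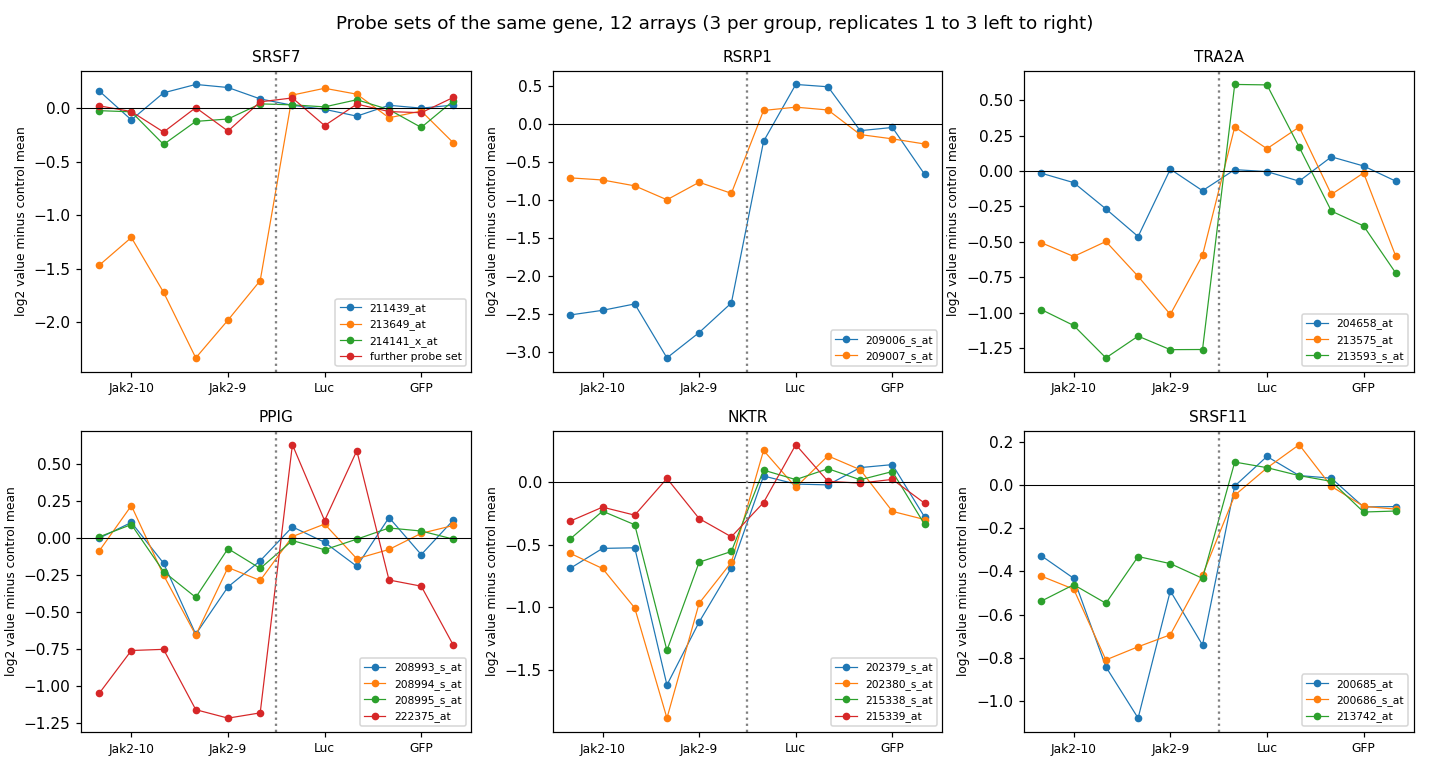
Log2 intensity minus the mean of the 6 control arrays (y axis) on each of the 12 arrays (x axis, grouped), for every probe set of 6 members; lines only join points of 1 probe set. For SRSF7, 213649_at lies well below 0 on every hairpin array (difference -1.72) while the other 3 probe sets differ by -0.10 to 0.12, and the 3 probe sets of SRSF11 lie together.

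Jak2-10 and Jak2-9 were set against each other, a comparison that played no part in the choice of members. No member probe set passed, and 0 of all probe sets did (0% called); the lowest adjusted p of a member was 0.572 (limma). At an unadjusted p below 0.05 there were 19 of 100 member probe sets, against 8.56% of all. The median difference was 0.14 over members, with 78 of 100 higher in Jak2-10, and -0.02 over all probe sets. Without array 1 of Jak2-9 the median was 0.05 with 63 above 0, and 9 had an unadjusted p below 0.05 with 0 calls, against 4.1% and a median of -0.02 over all probe sets. The widest differences among the named probe sets were those of DDX17 at 208719_s_at, 0.64 ± 0.16, and NKTR at 202379_s_at, 0.56 ± 0.18 (both adjusted p = 0.572, limma), and they became 0.45 and 0.32 without that array.

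Luc and GFP were also compared, again with no part in the choice. No member probe set passed, as with all probe sets (0% called), and 8 of 100 had an unadjusted p below 0.05, against 2.5% of all. These were 2 probe sets each of TRA2A and RSRP1 and 1 each of CLK1, CCNL2, PNISR and PPIG, all higher in Luc. TRA2A at 213593_s_at was higher in Luc by 0.93 ± 0.14 (adjusted p = 0.117, limma), with the Luc arrays all above the GFP arrays. PPIG at 222375_at was higher by 0.89 ± 0.15 (adjusted p = 0.158, limma), again with no overlap. RSRP1 at 209007_s_at was higher by 0.39 ± 0.09 (adjusted p = 0.711, limma). Without array 3 of Luc, TRA2A stood at 1.07 with an adjusted p of 0.0491 (limma), and it was then called, among 2 calls over all probe sets. With array weights, TRA2A and PPIG at these probe sets were called as well (adjusted p = 0.0208 and 0.0207, limma), among 9 calls over all probe sets.

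Other genes of splicing control, listed by function, were read in the same fit. Of 63 listed, 57 had 162 probe sets, of which 11 (9 genes) were lower with JAK2 hairpins and 3 (3 genes) higher, against 2.51% and 0.629% of all probe sets, with a median difference of -0.06 against 0.03 over all. Kinases of SR proteins and their partners had 0 of 27 probe sets called with both hairpins among 10 genes, and 1 probe set of CDK13 was called lower with Jak2-9 alone. The hnRNP group, RNA-binding proteins that often oppose SR proteins, had 8 lower probe sets of 7 genes and 1 higher (U2AF2) among 94 probe sets of 31 genes. The widest differences there were -2.13 ± 0.18 and -1.96 ± 0.11 at 2 probe sets of HNRNPA1 and -1.68 ± 0.13 at 1 of HNRNPD, both hnRNPs that influence splice site choice. The paraspeckle and matrix group had 3 lower of 2 genes (SFPQ and PSPC1) and 1 higher (SRRT) among 26 probe sets of 8 genes, and factors of nonsense-mediated decay, which destroys transcripts with early stop codons, had 0 lower and 1 higher (UPF1) among 15 of 8 genes.

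NEAT1 and an array control were also lower on hairpin arrays than on control arrays. NEAT1, the noncoding RNA on which paraspeckles form, had 4.41, 4.46 and 4.47 in Jak2-10, 4.63, 4.18 and 4.28 in Jak2-9, against 5.31, 6.31 and 5.83 in Luc and 5.02, 5.33 and 4.72 in GFP. All hairpin arrays lay below all controls, and the difference was -1.01 ± 0.15 on the log2 scale. The Luc mean stood above the GFP mean by 0.79, and hairpin signal this low may hold background. MALAT1 was not analysed here. The Alu control of the array, a probe set for the commonest short repeat of the human genome, present in introns of many genes, had 14.15, 14.15 and 14.01 in Jak2-10, 13.97, 13.94 and 14.13 in Jak2-9, against 14.63, 14.68 and 14.67 in Luc and 14.64, 14.52 and 14.50 in GFP. Hairpins and controls did not overlap there either. The log2 ratio of 3′ to 5′ array probe sets of beta-actin was 0.13 to 0.42 on hairpin arrays and 0.19 to 0.38 on control arrays, with the highest value on array 1 of Jak2-9. For GAPDH it was -0.13 to 0.09 on hairpin arrays and -0.11 to -0.004 on control arrays. The part of these measures in the members' differences was not tested.

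**Figure D4:**
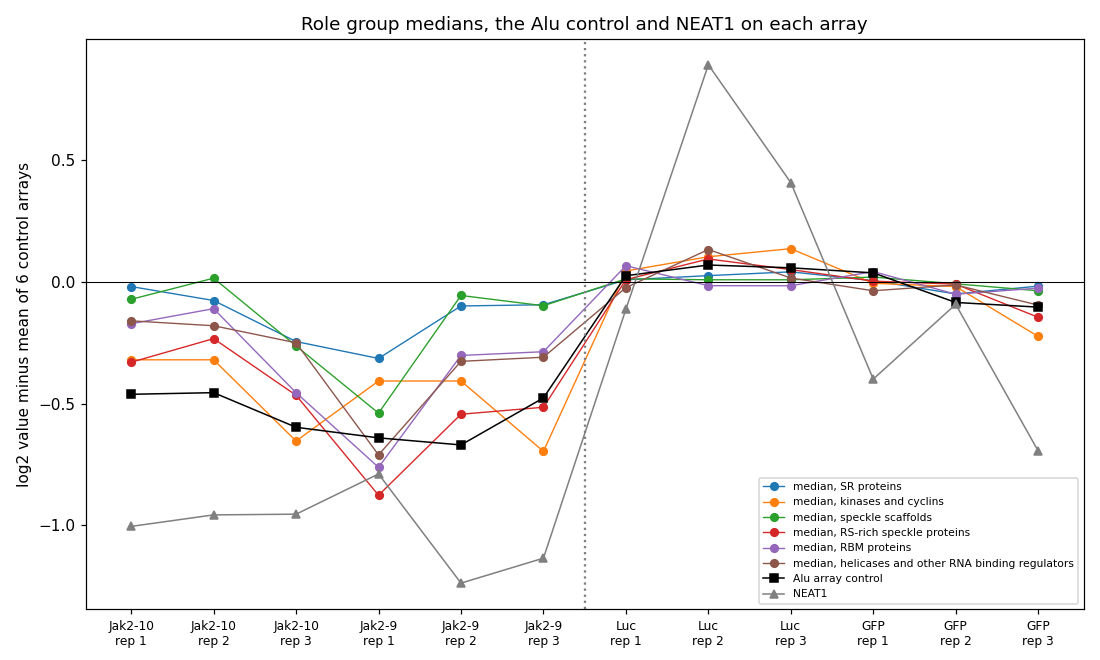
Median over the probe sets of each role group, the Alu array control and NEAT1 on each array, as log2 intensity minus the mean of the 6 control arrays (y axis), with arrays by group along the x axis; lines only join points of 1 measure. The median of the arginine and serine rich group lies between -0.88 and -0.23 on hairpin arrays and between -0.15 and 0.09 on control arrays.

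On single arrays the median member difference from the control mean was -0.12, -0.13 and -0.33 in Jak2-10, -0.64, -0.27 and -0.22 in Jak2-9, against 0.01, 0.04 and 0.04 in Luc and 0.01, -0.03 and -0.07 in GFP. Array 1 of Jak2-9 was lowest and no hairpin array reached a control array. The SR protein median ran from -0.31 to -0.02 on hairpin arrays and from -0.05 to 0.04 on control arrays, and these ranges overlap. For kinases and cyclins it ran from -0.70 to -0.32 and from -0.22 to 0.14, and for RBM proteins from -0.76 to -0.11 and from -0.05 to 0.07. These medians rest on members chosen for falls and describe only how the arrays differ.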

How the data were processed

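Expression was measured on 12 arrays of HEL cells in 4 groups of 3. The authors deposited 1 table of linear intensity, 1 value for each probe set on each array, made by RMA according to the submitters' notes on processing; no RMA version or genome build is given in the sources used here. RMA normalizes the arrays to like distributions and compresses differences of dim probe sets. Median intensity was 42.8 to 46.4, and the log2 scale was applied here to the deposited values, with no pseudocount, because the table was linear where log2 values had been planned for. No detection calls entered, and dim probe sets may read background. Depth has no counterpart on arrays, whose number limits the precision.

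Of 22930 probe sets, 524 array controls were left out; the platform annotation gave 1 gene symbol to 19415 of the rest, several to 125 and listed none for 2866. A linear model with 4 group means (R 4.3.3; lmFit and eBayes of limma 3.58.1) was fitted to all 12 arrays and 22406 probe sets and tested on simulated data. Contrasts were both hairpin groups minus both controls, each hairpin alone minus both controls, 1 hairpin against the other (Jak2-10 minus Jak2-9) and 1 control against the other (Luc minus GFP). P-values were adjusted by the Benjamini-Hochberg method over all probe sets. Replicates carry numbers in the labels, with no word on separate cultures, and a p-value here covers only array-to-array spread that may be technical. Values on every array are given for each member with a call in any contrast, at its brightest called probe set, for SON, and for the 5 members whose probe sets differed most. Members, role groups and lists were chosen with earlier results of these data known. Alternatives covered scaling, a filter on dim probe sets, the choice of probe sets, prior variance, array weights, controls and each array left out. Motif searches and figures used Python 3.11.15 with matplotlib 3.10.9.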

Additional observations from a re-analysis of the deposited data

How the results depend on the processing

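The count of member probe sets called lower with JAK2 hairpins (37), with Jak2-9 (39) and with Jak2-10 (18) depended on the probe sets entered. With 1 probe set per gene, the brightest (42 members), it was 13, 13 and 7. All probe sets together gave calls in 20, 23 and 12 genes. In that fit the brightest probe sets of SRSF7, TRA2A and PPIG were not called in these contrasts. With plain name endings only (35 probe sets) the counts were 14, 16 and 8. Against GFP alone the hairpins had 21 calls and against Luc alone 33, and Jak2-10 had 28 calls when only the arrays compared entered the fit. The cause was not tested. For these choices of probe sets, controls and arrays compared, shares over all probe sets are not given here. Nothing is read from those counts. Leaving out 1 array gave 29 (without GFP replicate 1) to 41 for both hairpins, 29 (without Jak2-9 replicate 1) to 47 for Jak2-9, 10 (without Jak2-10 replicate 3) to 28 (without Jak2-9 replicate 1) for Jak2-10, 0 to 0 for Jak2-10 against Jak2-9, and 0 to 1 (without Luc replicate 3) for Luc against GFP, and the median difference of both hairpins ranged from -0.31 to -0.18. In all 12 such fits 28 of the 37 calls, of 17 genes, were kept, and 27 of 39 and 10 of 18 for Jak2-9 and Jak2-10. Replicate numbers gave no clear pairing of the arrays: deviations from group means correlated at -0.14 to 0.19 in 18 same-numbered pairs and at -0.18 to 0.17 in the others. Overlapping ranges from 3 arrays per group cannot exclude pairing. With the replicate number as a block the counts were 36, 41, 17, 0 and 1. Over all probe sets that fit called 3.16%, 4.93%, 1.3%, 0% and 0.00446%. The 1 call in Luc against GFP was TRA2A at 213593_s_at (adjusted p = 0.0238, limma). Array weights gave 2 calls in Luc against GFP, TRA2A and PPIG at 222375_at (adjusted p = 0.0208 and 0.0207, limma), among 9 over all probe sets. Median centring, renewed quantile normalization, the filter on the dimmest 30% of probe sets and an intensity trend kept each count within 1.5 times and the median below 0 where it was computed. The differences of the 30 named probe sets kept their sign in all 360 values with 1 array left out. Most of these were named for their calls or wide differences, so their kept signs say little about the other members. Over all 100 member probe sets, 6 changed sign without array 1 of Jak2-9. Signal close to background limits what dim probe sets show, among them PPIG 222375_at, TRA2A 213593_s_at, HNRNPH1 213472_at and NKTR 215339_at.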
